A study of Mus musculus with 10 samples.

Results

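Probe sets whose annotation names more than 1 gene made up 1621 of the 35557 probe sets on the array. They were chosen by annotation alone, as every probe set whose gene symbol field holds several symbols, and no expression value entered the choice. Of the remaining probe sets, 21789 carried 1 symbol and 12147 carried none. Whole-transcript microarrays read RNA of mouse granulosa cells, the somatic cells that surround the oocyte, taken from PRKO animals, which lack the progesterone receptor, and from PR+/- animals as heterozygous controls. The PRKO mice had a lacZ insertion in both copies of the receptor gene Pgr, which disrupts both of its isoforms, and PR+/- mice had it in 1 copy, so the controls carried the allele too. Mice of both genotypes were 21 to 23 days old, received equine chorionic gonadotropin (5 IU) and, 44 to 47 h later, human chorionic gonadotropin (hCG, 5 IU), and antral follicles were punctured 8 h after hCG. Each array held cells pooled from 3 animals, giving 5 pools from 15 animals in each genotype. A pool reading is a bulk value, so fewer cells of a type and less RNA per cell cannot be told apart.

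A short probe reports the summed signal of every transcript it can bind. Where genes arose by recent duplication, or where processed pseudogenes copy an abundant mRNA, no probe may distinguish the copies, and array annotation then lists all of them for 1 probe set. Genes read this way include replication-dependent histones, ribosomal protein genes with their many pseudogenes, olfactory receptors, haemoglobins and tandem repeats of testis genes. A value for such a probe set belongs to the group of named genes and not to a single one of them.

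The shared probe sets named 2024 different symbols, or 2032 genes by Entrez identifier, of which 2007 were found in the RefSeq gene table of assembly GRCm38.p6. Only 627 of these genes also had a probe set of their own, and the other 1405 (69.1%) were read through shared probe sets alone. Areg, the gene of the EGF receptor ligand amphiregulin, was named by 0 annotated probe sets and was not analysed here, and 0 shared probe sets held any gene of a list of ovary and ovulation genes. Of the shared probe sets, 725 held 2 symbols, 571 held 3 to 5 and 325 held more than 5, up to 20. In 8 of them the same symbol was repeated under different Entrez identifiers.

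Shared probe sets were not independent readings. Values were identical on all 10 arrays within 93 groups that together held 259 probe sets, which left 1455 distinct profiles. The largest such group was 18 probe sets of Snord116l1 and Snord116l2, small nucleolar RNA genes, followed by 13 of the Mir669a cluster and 9 of the Mir467a cluster. When probe sets that had any symbol in common were joined, the 1621 fell into 593 linked groups, 307 of them with a single probe set.

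Sequences are given for the genes whose shared probe sets differed most between genotypes, to show how alike the promoters of genes behind 1 reading are. They are RefSeq promoter windows of 300 bases on GRCm38.p6, from 250 bases before the transcript start to 50 after it. Such a window was found for 21 of the 24 genes named by probe sets past the threshold. As most of each window lies before the start, it does not show how alike the genes are where probes bind. Apol7b (chr15:77447411-77447710, minus strand) and Apol7e (chr15:77698639-77698938, plus strand) lie on the same chromosome. Their windows had 293 identical bases among 295 aligned, and 96.1% identity when the 10 gap columns were counted. Capitals mark the bases that differ between the pair or have no partner in the alignment.
Apol7b: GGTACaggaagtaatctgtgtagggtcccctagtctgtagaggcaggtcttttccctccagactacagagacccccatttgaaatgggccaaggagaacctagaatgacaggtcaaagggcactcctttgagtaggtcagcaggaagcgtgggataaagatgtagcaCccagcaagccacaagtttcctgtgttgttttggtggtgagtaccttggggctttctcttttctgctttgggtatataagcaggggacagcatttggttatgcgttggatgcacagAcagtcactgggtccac
Apol7e: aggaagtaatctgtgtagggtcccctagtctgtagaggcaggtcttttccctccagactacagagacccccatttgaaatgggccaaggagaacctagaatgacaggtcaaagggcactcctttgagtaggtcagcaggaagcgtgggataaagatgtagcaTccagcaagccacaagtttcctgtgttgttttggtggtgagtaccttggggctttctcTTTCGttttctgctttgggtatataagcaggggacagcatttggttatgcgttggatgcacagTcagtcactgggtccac

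Speer4a (chr5:26039456-26039755, minus strand) and Speer4b (chr5:27501343-27501642, minus strand) belong to the Speer family, testis genes repeated along chromosome 5. Their windows were 94.1% identical, those of Speer4c and Speer4e 98.7%, and those of 5031410I06Rik and Speer4a 96.0%. Capitals again mark the bases that differ between the pair.
Speer4a: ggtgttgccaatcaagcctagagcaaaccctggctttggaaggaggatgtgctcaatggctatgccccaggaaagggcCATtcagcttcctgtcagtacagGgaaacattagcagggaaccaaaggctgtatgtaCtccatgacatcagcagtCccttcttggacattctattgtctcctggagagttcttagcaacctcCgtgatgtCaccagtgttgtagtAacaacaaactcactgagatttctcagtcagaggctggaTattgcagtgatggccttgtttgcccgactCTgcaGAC
Speer4b: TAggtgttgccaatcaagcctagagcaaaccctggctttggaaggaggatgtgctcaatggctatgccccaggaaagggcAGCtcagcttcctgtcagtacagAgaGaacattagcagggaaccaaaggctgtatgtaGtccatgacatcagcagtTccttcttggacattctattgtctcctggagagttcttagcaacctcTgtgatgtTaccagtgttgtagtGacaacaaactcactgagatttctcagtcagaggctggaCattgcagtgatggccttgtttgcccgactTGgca

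Gm17695 (chr5:27951786-27952085, plus strand) and LOC102635990 (chr10:82316532-82316831, minus strand) lie on different chromosomes, and their windows were 68.8% identical. Capitals here mark matches to the letters ACANNNTGT, the core of a palindromic element bound by progesterone and related steroid receptors, searched on both strands. Each window held 1 match, with its first base 199 bases before the start in Gm17695 and 170 before it in LOC102635990. The same letters occurred in 6.85% of 32851 promoter windows of equal length, and in 0 of the windows of Apol7b, Apol7e, Speer4a and Speer4b. Both matches read ACACTTTGT with the same bases next to them on either side, so they are not independent of each other. Also searched were AGAACA, found in 19.0% of the promoter windows, and TATAAA, found in 13.6%. Among the genes printed here, AGAACA had 1 match in Speer4b and TATAAA had 1 in Gm17695, with 0 in the others.
Gm17695: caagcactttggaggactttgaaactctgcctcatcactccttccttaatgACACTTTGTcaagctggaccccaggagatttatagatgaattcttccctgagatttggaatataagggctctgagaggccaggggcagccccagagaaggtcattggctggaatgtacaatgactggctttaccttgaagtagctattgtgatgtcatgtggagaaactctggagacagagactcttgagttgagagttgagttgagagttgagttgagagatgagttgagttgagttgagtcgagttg
LOC102635990: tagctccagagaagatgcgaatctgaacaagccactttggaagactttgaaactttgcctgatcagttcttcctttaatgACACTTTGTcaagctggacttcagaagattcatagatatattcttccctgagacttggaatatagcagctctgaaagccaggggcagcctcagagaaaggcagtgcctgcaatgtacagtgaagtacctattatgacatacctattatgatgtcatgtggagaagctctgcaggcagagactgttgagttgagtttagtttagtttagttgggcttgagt

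Across the series the array medians lay between 6.48 and 6.55, pairwise correlations between arrays ran from 0.974 to 0.992, and values ran from 1.45 to 14.4 on the log2 scale. Pgr, read by a probe set of its own, gave a log2 difference of -0.46 (SE 0.30, limma adjusted p = 0.625), and as the site of its probes is not known here it is no check of the labels. All 7 granulosa markers measured read above background, between 8.77 and 12.87. So did all 4 theca and stroma markers, between 7.82 and 9.42, and 3 of 4 endothelial markers. The part of these other cells in the readings was not tested. Here a probe set is called dim when its mean over the 10 pools lies under 5.86, the 95th percentile of 1035 one-symbol olfactory receptor probe sets, genes that should be silent in these cells. With 5 pools per genotype, the number of arrays limits the precision.

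Few shared probe sets differed between the genotypes. With limma, fitted to all 35557 probe sets and adjusted over all of them, 13 shared probe sets passed an adjusted p under 0.05, which is 0.802% of them, beside 1.28% of all probe sets on the array. There were 5 lower in PRKO, or 0.308% against 1.03% of all probe sets. There were 8 higher, or 0.494% against 0.253%. These 13 belonged to 7 linked groups: Apol7, Gm17695, Loxl2, Ppan, Pakap with Palm2, the Speer4 genes and a pair of olfactory receptors. Only 3 linked groups were behind the falls and 4 behind the rises. In all 13 the pools of the genotypes did not overlap, which sets the exact permutation p of each at 0.0079, the smallest that 252 splits allow. As the 13 were picked on these same values, this is not separate support for the calls.

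**Figure D1:**
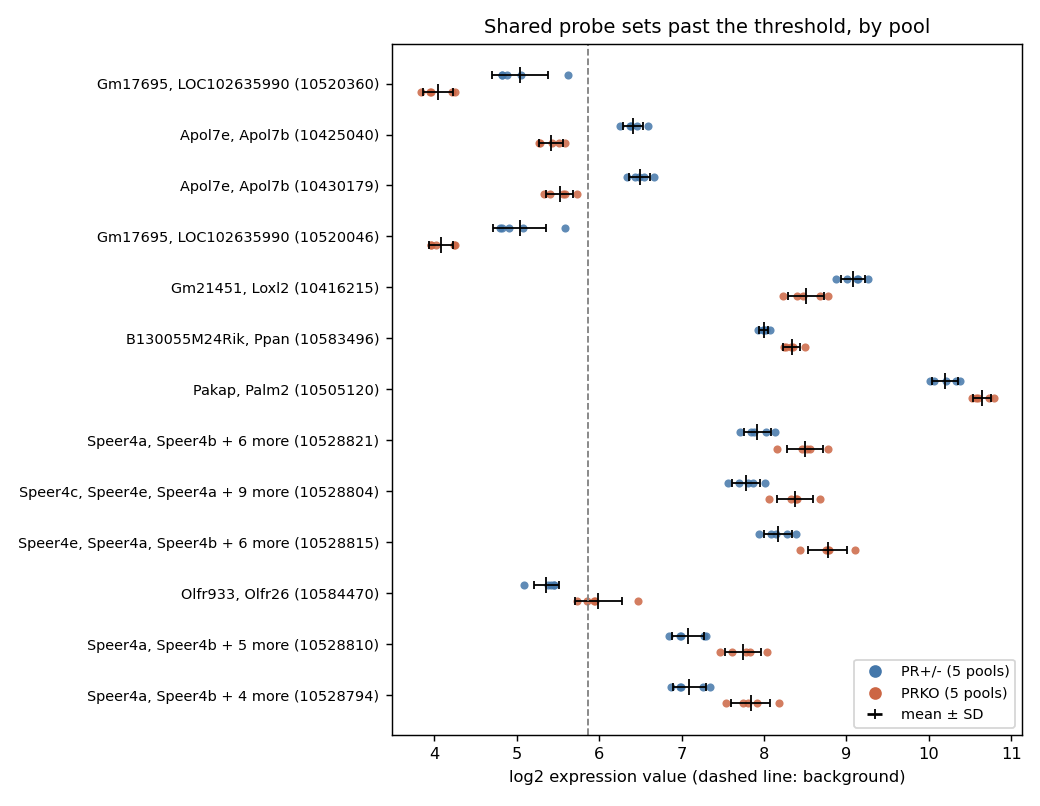
Log2 expression value (x axis) of the 13 shared probe sets with a limma adjusted p under 0.05, each named by its genes and probe set number, in 5 PR+/- pools and 5 PRKO pools (points), with the mean and SD of each genotype in black and a dashed line at 5.86. In all 13 the pools of the genotypes do not overlap, and both Gm17695 probe sets lie left of the dashed line in every pool.

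The falls with the smallest p were in a pair of probe sets for Apol7e and Apol7b, genes of the apolipoprotein L family, which is named after a lipid-binding protein of human plasma. The first (10425040) read 6.46, 6.25, 6.59, 6.38 and 6.37 in PR+/- pools 1 to 5 and 5.51, 5.27, 5.43, 5.59 and 5.28 in PRKO pools 1 to 5. Every PRKO pool was below every PR+/- pool, and the PRKO mean lay under the 5.86 background line, so the size of the fall is uncertain. Means with SD over 5 pools were 6.41 ± 0.12 for PR+/- and 5.41 ± 0.14 for PRKO, which is a difference of -0.996 on the log2 scale (SE 0.09, 95% interval -1.19 to -0.80, limma adjusted p = 0.000182). The second (10430179) read 6.54, 6.33, 6.67, 6.49 and 6.43 in PR+/- and 5.58, 5.40, 5.56, 5.73 and 5.33 in PRKO, a log2 difference of -0.97 (SE 0.09, adjusted p = 0.000284). Both probe sets name the same pair of genes, whose promoter windows are printed above, and neither gene had a probe set of its own, so the fall cannot be assigned to one of them. Both calls held when any pool was left out, with adjusted p up to 0.0016.

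A second pair fell by as much, at readings typical of background. The probe sets of Gm17695, a predicted gene, and LOC102635990 (10520360 and 10520046) were dim in both genotypes. The first read 5.62, 4.82, 5.05, 4.88 and 4.82 in PR+/- and 4.21, 3.96, 3.94, 3.84 and 4.25 in PRKO, with PR+/- pool 1 apart from the other controls. Its log2 difference was -0.998 (SE 0.15, 95% interval -1.34 to -0.66, adjusted p = 0.0076). The second gave -0.95 (SE 0.14, adjusted p = 0.0068) over nearly the same readings. LOC102635990 also had 2 probe sets of its own, which gave log2 differences of -0.07 (adjusted p = 0.770) and -0.04 (adjusted p = 0.904) at levels of 2.30 and 4.69, both dim. Both shared calls held when any pool was left out, with adjusted p up to 0.0257.

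Loxl2, a lysyl oxidase that cross-links collagen and elastin, was read only together with the predicted gene Gm21451, also on chromosome 14. The probe set (10416215) read 9.26, 8.87, 9.14, 9.13 and 9.01 in PR+/- and 8.40, 8.67, 8.23, 8.77 and 8.47 in PRKO. The lowest control lay just above the highest PRKO pool. The log2 difference was -0.57 (SE 0.11, 95% interval -0.82 to -0.33), a 1.49-fold fall with an adjusted p of 0.0309. Both genotypes read well above background. Leaving out any of 7 pools (PR+/- 1, 3, 4 or 5, PRKO 1, 3 or 5) took the adjusted p past 0.05, to at most 0.0897.

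Most probe sets called higher named Speer4 genes and formed 1 linked group. These genes belong to a family of glutamate-rich proteins known from spermatogenesis in the mouse testis. There were 9 shared probe sets that named at least 1 of Speer4a to Speer4e, each together with further genes, and all 9 differences were above 0, between 0.19 and 0.75 with a median of 0.58. Of these, 5 passed the threshold and 4 of the other readings were dim, with adjusted p over the 9 running from 0.0140 to 0.398. The mean of the 9 read 6.54, 6.71, 6.45, 6.58 and 6.79 in PR+/- pools 1 to 5 and 7.10, 7.04, 6.83, 7.07 and 7.28 in PRKO pools 1 to 5. These pool means did not overlap between the genotypes, but they include the 5 called probe sets and are not separate from them.

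The largest rise past the threshold was in the probe set of Speer4a, Speer4b, 5031410I06Rik, Gm10471, Gm7361 and Gm10220 (10528794). It read 6.98, 7.34, 6.87, 7.0 and 7.26 in PR+/- and 7.91, 7.75, 7.54, 7.81 and 8.18 in PRKO, a 1.68-fold rise (log2 difference 0.75, SE 0.13, 95% interval 0.47 to 1.03, adjusted p = 0.0140). A second (10528810), which names the same genes and Gm21190, read 6.99, 7.30, 6.85, 6.99 and 7.28 in PR+/- and 7.83, 7.78, 7.47, 7.61 and 8.04 in PRKO (log2 difference 0.67, SE 0.12, adjusted p = 0.0220). The remaining 3 called probe sets name 8 to 12 genes each and gave 0.58 to 0.60, with adjusted p of 0.0352 to 0.0363. These probe sets share their genes and do not amount to 5 separate findings. The first stayed past the threshold without any single pool, with an adjusted p of up to 0.0498. The second lost the call without any of 5 pools (PR+/- 1, 3 or 4, PRKO 1 or 2), and the other 3 lost it without any of 8 (all but PR+/- 5 and PRKO 3), with adjusted p up to 0.101.

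Genes of this family with a probe set of their own also read higher in PRKO. The probe set of Speer4b alone, dim in both genotypes, read 4.88, 5.05, 5.10, 5.28 and 5.13 in PR+/- and 5.44, 5.43, 5.51, 5.39 and 5.57 in PRKO, so that the groups did not overlap (log2 difference 0.38, SE 0.08, adjusted p = 0.0441). Speer4a alone gave 0.31 (SE 0.09) with an adjusted p of 0.181. Just outside the threshold, the shared probe set of Gm30417, Speer4cos and Speer8-ps1 gave 0.51 (SE 0.11, adjusted p = 0.0539) with no overlap of pools.

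Pakap and Palm2 were read together by a bright probe set (10505120). Pakap yields fusion transcripts of Palm2, a paralemmin, with Akap2, an anchoring protein for protein kinase A. PR+/- pools read 10.06, 10.33, 10.01, 10.21 and 10.37, and PRKO pools read 10.79, 10.57, 10.53, 10.59 and 10.73. The PRKO pools were all above the controls, by 0.45 in the mean (SE 0.09, 95% interval 0.25 to 0.64, 1.36-fold, adjusted p = 0.0363). Pakap's own probe set gave 0.43 (SE 0.09), which missed the threshold at an adjusted p of 0.0634. The shared call was lost without any of 7 pools (PR+/- 1, 3 or 4, PRKO 1, 2, 4 or 5), with adjusted p up to 0.100.

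Ppan, a nucleolar factor of ribosome assembly, was read together with B130055M24Rik, a gene on another chromosome (10583496). It read 8.00, 8.07, 8.02, 7.98 and 7.92 in PR+/- and 8.35, 8.26, 8.33, 8.24 and 8.50 in PRKO. The controls lay close together and below every PRKO pool, a difference of 0.34 on the log2 scale (SE 0.07, 95% interval 0.19 to 0.48, 1.26-fold, adjusted p = 0.0345). B130055M24Rik alone gave 0.21 (SE 0.08, adjusted p = 0.358). Among single-pool omissions the call held only when PRKO pool 4 was left out, and adjusted p reached 0.0988 otherwise.

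Olfr933 and Olfr26, olfactory receptor genes on chromosome 9, gave the remaining call (10584470). Readings were 5.38, 5.45, 5.42, 5.09 and 5.45 in PR+/- and 5.73, 5.85, 5.93, 6.47 and 5.95 in PRKO. All controls were under the background line, the PRKO pools lay around it and PRKO pool 4 was the highest. The log2 difference was 0.63 (SE 0.13, adjusted p = 0.0461), against 0.31 (SE 0.10, adjusted p = 0.249) for Olfr933 alone. The call was lost without any pool other than PRKO 1 or PRKO 4, with adjusted p up to 0.123.

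At high signal, shared probe sets leaned to higher readings in PRKO. Pools of the genotypes did not overlap in 72 shared probe sets (4.44%), beside 3.61% of all probe sets. Of the 72, 11 were lower in PRKO (0.679%, against 2.01% of all) and 61 higher (3.76%, against 1.6% of all). The 72 include the 13 calls, 5 of them lower and 8 higher, so these counts are not separate from the calls. The 61 came from 22 linked groups. Among probe sets with a mean of 10 or above, 41 of 365 shared probe sets were higher without overlap (11.2%), against 4.42% of 1289 one-symbol probe sets at that level, and their median log2 differences were 0.12 and 0.05. A total of 17 of those 41 were probe sets of Rps2 with the predicted gene Gm10653, and 8 were probe sets of the H3c genes. Only 1 of the 41, Pakap with Palm2, was a call. Over all signal levels the median difference was 0.01 in shared probe sets and -0.01 in all probe sets.

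**Figure D2:**
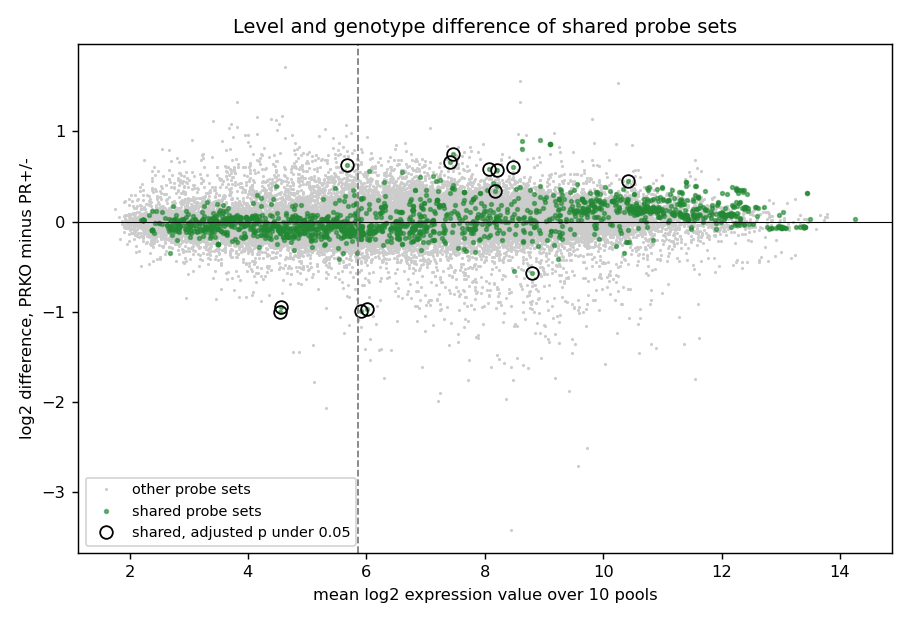
Mean log2 expression value over the 10 pools (x axis) against the log2 difference, PRKO minus PR+/- (y axis), for 1621 shared probe sets (green) and the other probe sets of the array (grey), with the 13 shared calls circled and a dashed line at 5.86. Above a level of 10 most green points lie a little above 0.

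Ribosomal proteins were the largest family of known function among the shared probe sets, with 239 probe sets in 36 linked groups, each naming a cytosolic ribosomal protein gene and mostly a pseudogene or predicted gene beside it. None was dim, 225 of the 239 differences were above 0 with a median of 0.15, and 0 passed the threshold, while 51 had an unadjusted limma p under 0.05. Over the whole array, 10.9% of probe sets and, among the shared ones, 12.9% had such a p. Pool means over the family ran from 10.57 to 10.93 in PR+/- and from 10.77 to 11.00 in PRKO, so the genotypes overlapped. One-symbol ribosomal probe sets gave the same median to within 0.01 (0.16 over 227 probe sets, 1 called). Rps2, a protein of the small subunit, had 17 shared probe sets with differences of 0.14 to 0.19, all 17 without overlap of pools and with adjusted p of at least 0.285. Their mean, with SD over 5 pools, was 12.29 ± 0.07 in the controls and 12.45 ± 0.04 in PRKO.

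Differences and overlap varied among the other ribosomal genes. Rpl11, of the large subunit, read with Brf2, a factor of RNA polymerase III, had 6 probe sets with differences of 0.23 to 0.26, and Rps26, of the small subunit, read with Gm6654, had 3 with 0.20 to 0.22. All 6 of the former and 2 of the latter did not overlap, with adjusted p of at least 0.126. Rps12, of the small subunit, was read jointly with Nol11, a nucleolar protein, by 4 probe sets that gave 0.30 to 0.34, and 3 of them did not overlap (adjusted p 0.116 to 0.278). Rpl21 and Rpl29, of the large subunit, had 32 and 35 shared probe sets with medians of 0.08 and 0.14, and 0 of either passed an unadjusted p under 0.05. Rpl12 differed between its readings: its own probe set gave 0.47 (SE 0.09, adjusted p = 0.0216), whereas 7 shared with Gm32899 gave 0.23 to 0.26 (adjusted p 0.497 to 0.615) and the 1 shared with Snora65 gave 0.40 (adjusted p = 0.181).

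Among families with over 10 shared probe sets, histones had the highest median difference. The replication-dependent histone genes are clustered copies expressed mainly in S phase, and 47 shared probe sets named them or other histones, with a median difference of 0.30, against 0.14 over 46 one-symbol histone probe sets. Median levels were 10.74 for the shared and 6.55 for the one-symbol probe sets, so signal differed too. The 47 fell into 8 linked groups. Of the 47, 0 passed the threshold and 31 had an unadjusted limma p under 0.05, beside 10.9% of all probe sets. The mean of 12 probe sets for the H3c genes, which encode histone H3, read 11.95, 12.21, 11.88, 11.98 and 12.24 in PR+/- and 12.30, 12.52, 12.45, 12.25 and 12.33 in PRKO. The lowest PRKO pool lay just above the highest control, and 8 of the 12 probe sets did not overlap. Differences in this group were 0.12 to 0.38, with adjusted p of 0.110 to 0.599.

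The H4c probe sets, for histone H4, numbered 6 and gave 0.39 to 0.44 (adjusted p 0.181 to 0.250). Their mean read 10.32, 10.68, 10.08, 10.34 and 10.54 in PR+/- and 10.68, 10.99, 10.82, 10.71 and 10.86 in PRKO. PR+/- pool 2 lay level with the lowest PRKO pool. The 8 probe sets for H2b genes gave a median of 0.34 with adjusted p of at least 0.306, and their pool means overlapped, from 9.82 to 10.47 in PR+/- and from 10.39 to 10.82 in PRKO.

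**Figure D3:**
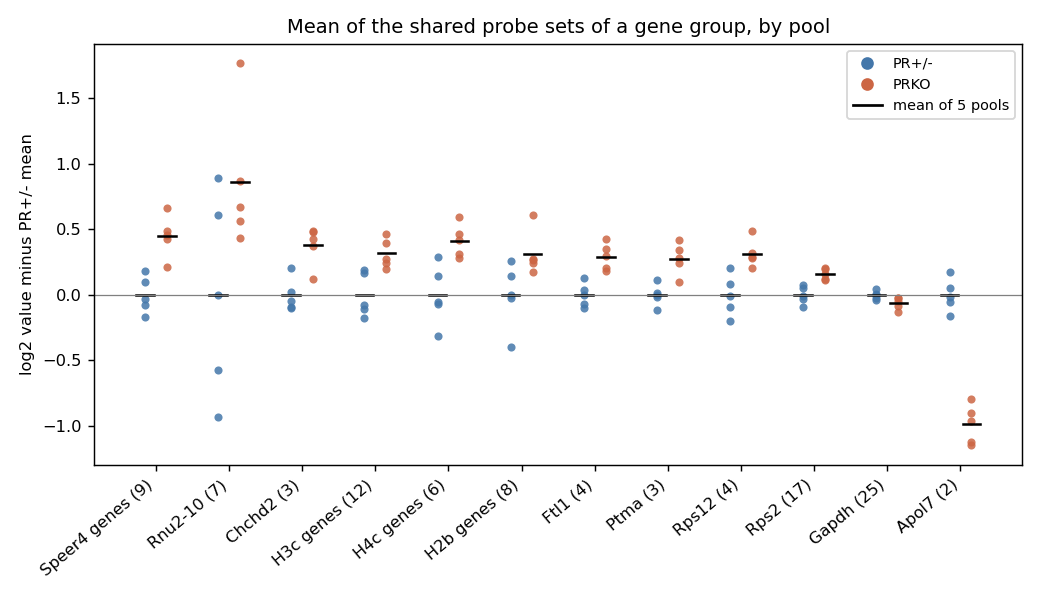
Mean log2 value of the shared probe sets of each gene group (number of probe sets in parentheses), minus the PR+/- mean, in 5 PR+/- and 5 PRKO pools (points) with the mean of 5 pools as a bar. The Apol7 pools of PRKO lie about 1 below the controls, the Speer4 and Rps2 pools of PRKO lie above every control, and the pools of Rnu2-10 (with Rdm1) spread widely and overlap.

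Several abundant mRNAs read with pseudogenes or other genes came close to the threshold with differences above 0. Chchd2, a mitochondrial protein, was read with its pseudogene and Zbed5, a zinc finger gene, by 3 probe sets with differences of 0.37 to 0.38 and adjusted p of 0.0734 to 0.0891. Their mean read 10.64, 10.75, 10.65, 10.69 and 10.94 in PR+/- and 11.16, 10.86, 11.10, 11.22 and 11.22 in PRKO, where PRKO pool 2 lay below PR+/- pool 5. Zbed5 alone gave 0.22 (SE 0.08, adjusted p = 0.295). Ftl1, the ferritin light chain that stores iron, had 4 probe sets with differences of 0.23 to 0.33 (adjusted p 0.0904 to 0.241), 3 of them without overlap, and its own probe set gave 0.32 (SE 0.07, adjusted p = 0.0778). All 4 Ftl1 probe sets also name Mir692-2 on chromosome 4 and Mir692-3 on chromosome 13, which have the same mature miRNA, printed here from RefSeq with its seed (bases 2 to 8) in capitals because these genes and Ftl1 share 1 reading.
mmu-miR-692: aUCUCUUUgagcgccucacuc

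Ptma, the nuclear protein prothymosin alpha, had 3 probe sets with 0.26 to 0.30 (adjusted p 0.118 to 0.203), and Rnaset2a with Rnaset2b, acid ribonucleases, had 2 with 0.33 (adjusted p 0.133 to 0.135). Nme2, a nucleoside diphosphate kinase, gave 0.34 with an adjusted p of 0.234 when read with Dscaml1 and 0.38 (SE 0.08, adjusted p = 0.0437) on its own probe set. Gapdh, the glycolytic enzyme often used as a reference, went the other way by a small amount: 25 shared probe sets gave -0.07 to -0.05, with adjusted p of at least 0.680. Hmgb1, a chromatin protein, had 34 shared probe sets with differences of 0.02 to 0.19, and 0 of them passed an unadjusted p under 0.05.

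Small RNAs and their host genes accounted for 118 shared probe sets in 65 distinct profiles, 59 of them dim. Of the 118, 0 passed the limma threshold and 27 had an unadjusted limma p under 0.05, beside 10.9% of all probe sets. The largest rises of all shared probe sets, as read, were in 7 probe sets that name Rnu2-10, a U2 spliceosomal RNA gene, and Rdm1, a protein-coding gene, at 0.81 to 0.91, yet their adjusted p was at least 0.398. The mean of the 7 read 8.51, 9.40, 7.58, 7.94 and 9.13 in PR+/- and 9.08, 9.18, 8.94, 10.28 and 9.38 in PRKO. The controls spread from 7.58 to 9.40, and PR+/- pool 2 read above 4 of the PRKO pools. U1 genes (Rnu1b, 9 probe sets) gave 0.20 to 0.25 and the U3 genes (Rnu3b, 4 probe sets with identical values) 0.33, with adjusted p of at least 0.334. Rn7s1 and Rn7s2, genes of the signal recognition particle RNA, gave 0.32 (SE 0.13, adjusted p = 0.418) on 2 probe sets with identical values.

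Of 64 miRNA symbols on shared probe sets, 37 had mature sequences in the RefSeq table, 52 in all with 47 different seeds. The X-linked Mir465 genes, listed together on 2 probe sets, have identical 3p arms. Let-7b and let-7c share a seed but were listed on separate probe sets, each with the transcript Lncppara. Both pairs are shown with seeds in capitals, since likeness of the mature RNA went with a joint reading in one and not in the other.
mmu-miR-465a-3p: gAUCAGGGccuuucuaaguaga
mmu-miR-465b-3p: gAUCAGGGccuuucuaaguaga
mmu-let-7b-5p: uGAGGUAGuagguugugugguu
mmu-let-7c-5p: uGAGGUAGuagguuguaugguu

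The clusters Mir467a (9 probe sets) and Mir669a (13 probe sets) each had 1 profile, at 2.38 and 2.22, and all 24 Snord116 probe sets were dim. Their differences lay between -0.18 and 0.02, with adjusted p of at least 0.626.

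Several families known for roles outside the granulosa cell were mostly dim, while keratins (1 of 19 dim), oocyte families (2 of 12), chemokines (0 of 7) and haemoglobins (0 of 4) were not. Olfactory and vomeronasal receptors, the sensory receptors of the nose, had 166 probe sets, 159 of them dim, with 1 call, described above. Testis and X-linked amplified families had 138 probe sets, 98 of them dim, and their 5 calls were the Speer4 probe sets. All 7 cytochrome P450 probe sets, all 7 for serpins and kallikreins, all 10 for major urinary, lipocalin and secretoglobin proteins and all 6 for prolactin and placental families were dim, with 0 past the limma threshold and 0 at an unadjusted p under 0.05 in any of these 4 families. Also dim were the 48 probe sets that named only genes of the Y chromosome, between 2.85 and 4.95. Immunoglobulin and T cell receptor segments had 58 probe sets, 35 of them dim, with 51 differences below 0. Of these probe sets 0 were past the limma threshold and 1 had an unadjusted p under 0.05. Their median difference was -0.09. Dim probe sets leaned below 0 across the array, with a median of -0.04 over 13548.

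Haemoglobin genes, which code for the oxygen carrier of red cells, read far above background. Hba-a1 with Hba-a2 read 12.16, 12.27, 11.26, 11.46 and 12.11 in PR+/- and 12.18, 12.65, 11.85, 12.29 and 11.89 in PRKO. Genotypes overlapped broadly, with a log2 difference of 0.32 (SE 0.22, adjusted p = 0.641), and the Hbb genes gave 0.33 (SE 0.22, adjusted p = 0.631). Of 3 other red cell markers, Alas2 (7.86) and Slc4a1 (6.59) read above background and Hemgn (5.86) lay at the background line. Pool means of the 3 were 6.46 to 6.94 in PR+/- and 6.71 to 7.12 in PRKO, and 0 of them passed the threshold. Their part in the readings was not tested.

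Oocyte families, genes expressed in the egg, had 12 shared probe sets, and all 12 differences were below 0 with a median of -0.13, 0 past the limma threshold and 0 at an unadjusted p under 0.05. Nlrp4e with Nlrp4c read 7.29, 7.97, 7.53, 7.40 and 7.08 in PR+/- and 7.22, 7.66, 7.05, 7.03 and 7.12 in PRKO, overlapping (log2 difference -0.24, SE 0.17, adjusted p = 0.648). Of 4 one-symbol oocyte markers 3 read above background and 0 passed the threshold, with pool means of 7.84 to 8.55 in PR+/- and 7.74 to 8.62 in PRKO. Their part in these readings was not tested.

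Immune families had 0 probe sets past the limma threshold, and 1 MHC and 1 interferon probe set had an unadjusted p under 0.05. The 8 MHC probe sets ran from -0.31 (H2-Q6 with H2-Q8, SE 0.15, adjusted p = 0.472) to 0.24 (H2-T23 with H2-T-ps, SE 0.09, adjusted p = 0.342). Of 29 probe sets for interferon genes and interferon-induced genes, 20 were dim and 28 lay below 0. The lowest was -0.26 (Ifi204 with Ifi211, SE 0.10, adjusted p = 0.385). The median was -0.04, as it was over all dim probe sets on the array. Ccl21 genes, chemokines that guide lymphocytes, gave 0.13 on 4 probe sets with identical values, and Ccl27 genes gave -0.19 to -0.15 on 3. Among 5 leukocyte markers 2 read above background and 0 passed the threshold, and their pool means were 5.55 to 5.76 in PR+/- and 5.37 to 5.75 in PRKO. Their part in these readings was not tested.

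Structural and enzyme families differed little. Keratins and keratin-associated proteins, of epithelia and hair, had 19 probe sets, 18 of them below 0, with a median of -0.15, 0 past the limma threshold and 2 at an unadjusted p under 0.05. The lowest p in that family belonged to Krtap6-1 with Krtap6-5 and 3 further genes, at -0.22 (SE 0.08, adjusted p = 0.30) with no overlap of pools. Gsta1 and Gsta2, glutathione transferases that detoxify lipid peroxides, had 4 probe sets at -0.34 to -0.29 (adjusted p at least 0.454), and their mean read 7.89, 7.85, 7.78, 7.56 and 8.12 in PR+/- and 7.69, 7.62, 6.96, 7.49 and 7.86 in PRKO. These overlapped, with PRKO pool 3 the lowest. Heat shock proteins (10 probe sets), tubulins and actins (11) and zinc finger proteins (43) had medians of -0.02, 0.04 and 0.04. Each had 0 past the limma threshold, and 1, 0 and 2 of their probe sets had an unadjusted p under 0.05.

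**Figure D4:**
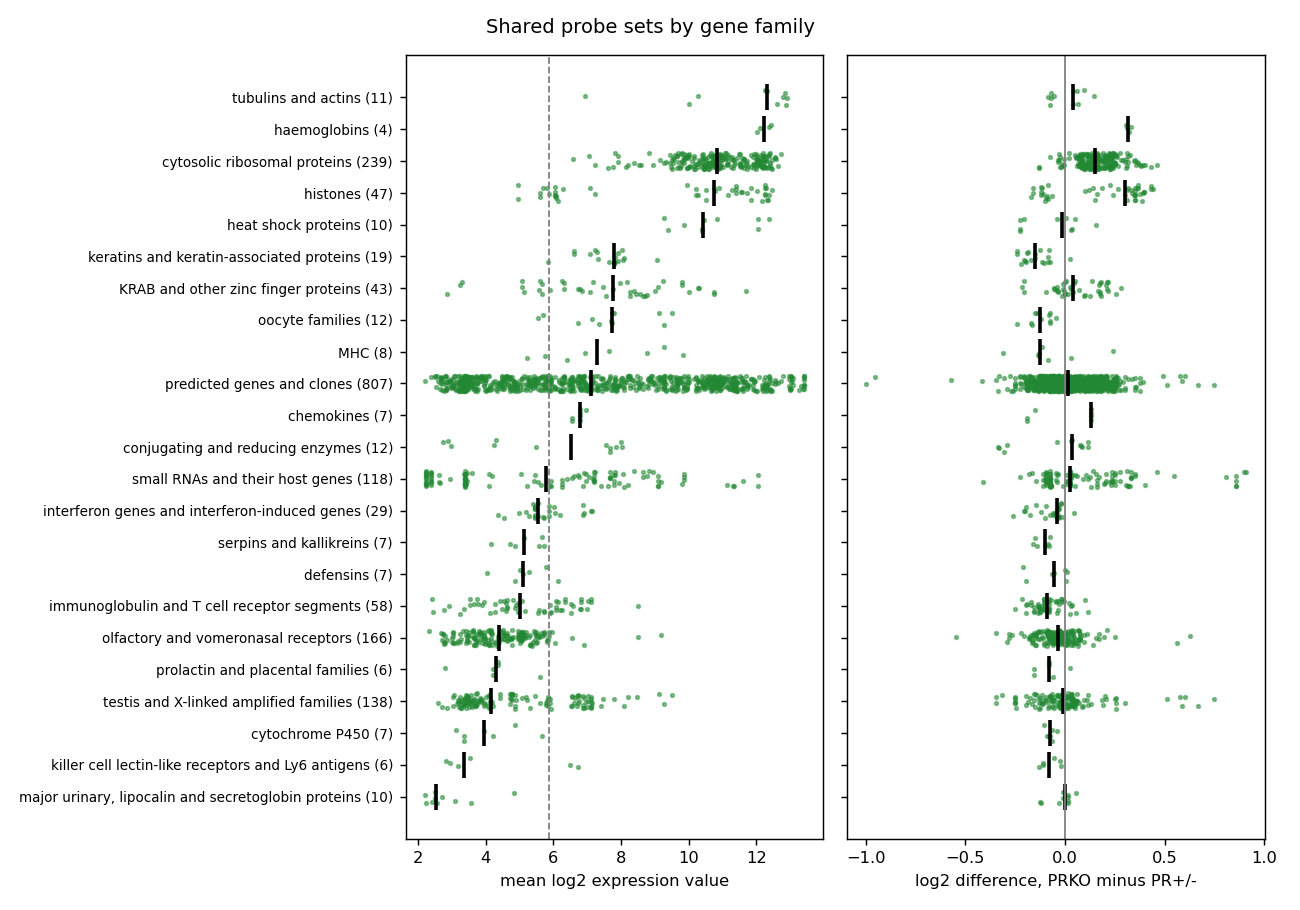
Mean log2 expression value (left, dashed line at 5.86) and log2 difference, PRKO minus PR+/- (right), of the shared probe sets of the 23 gene families with at least 3 of them, 1 point per probe set, with the family median as a black tick and the number of probe sets in parentheses. Families are ordered by median level, and a probe set can stand in more than 1 family. Most histone and ribosomal points lie right of 0, and keratin and oocyte points left of it.

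The number and position of the genes behind a reading went with its signal. With 2 symbols, 32.0% of 725 probe sets were dim, and with more than 5 symbols 61.2% of 325 were. Where the genes lay on different chromosomes, as with pseudogene copies, 9.38% of 533 probe sets were dim and the median difference was 0.10, with 2 calls lower and 1 higher. Where they lay on the same chromosome but apart, 64.0% of 675 were dim, with 3 calls lower and 6 higher. Those 6 include the 5 Speer4 probe sets, which share their genes. Probe sets classed as neighbouring genes (268) or overlapping genes (109) held none of the 13 calls. The call of Pakap with Palm2 was among 36 probe sets whose genes were not all in the gene table, so its position was not classed. Over all, 42.6% of shared probe sets were dim, against 33.4% of one-symbol probe sets. Calls made up 0.802% of shared probe sets and 1.28% of all probe sets, and whether they went with position was not tested.

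Readings of a gene on its own and on a shared probe set could be set side by side for 627 genes, taking for each gene the 1 own probe set with the highest mean, in 1730 pairs that involved 909 shared probe sets. Across these pairs, which share arrays and often probes, the differences between genotypes correlated with a Pearson r of 0.52. In 10 pairs the shared probe set passed the threshold and the gene's own did not, in 11 pairs the own probe set alone passed, and in 5 pairs, all of Speer4b, both did. The 11 were 8 pairs of Rpl12, 2 of Speer4b and 1 of Nme2.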

How the data were processed

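The authors deposited log2 expression values of 35557 probe sets for each array, and per the submitters' processing notes they used Partek. How they corrected background, normalized and summarized the probes is not stated there. There were 0 unused columns. Gene symbols came from GEO's platform annotation, which can be old. Gene positions came from the RefSeq table of GRCm38.p6, used for names and order only, and the printed sequences with their coordinates are RefSeq's. The genotypes were compared by an unblocked limma fit (limma 3.58.1, R 4.3.3) with moderated variances, with Benjamini-Hochberg adjustment over all probe sets and a threshold of 0.05. Adjusted p in the text are limma's, log2 differences subtract PR+/- from PRKO, SE and intervals (95%) are limma's, and SD is over 5 pools. Probe sets were called neighbours when their genes lay within 3 places in the gene order.

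Named probe sets follow a rule: Areg and any probe set with a gene of the ovary and ovulation list (0 were found), the 12 largest falls and 12 largest rises among those past the threshold, the 2 with the smallest p in each of the 23 family lists, of 25, with at least 3 members, and the 5 with the highest mean. Other groups (Chchd2, Ftl1, Ptma, Rnaset2, Gapdh, Hmgb1, Rps2, Rpl12, Rpl21, Rpl29, Nme2, the small RNA genes and the rest) were chosen after their values were seen. The probe sets and lists were chosen with earlier results of these data known. On simulated data with 50 changes planted at each fold among 35557 probe sets, the fit recovered 22% of those planted at 1.25-fold, 62% of those at 1.5-fold, 86% of the 2-fold and 96% of the 3-fold ones, with 4 false calls. Promoters were aligned with Biopython 1.88, and Python 3.11.15 with pandas 2.3.3 and matplotlib 3.10.9 made the tables and plots.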

Additional observations from a re-analysis of the deposited data

Results flagged for a closer look

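Among the 59 named probe sets, 118 groups of 5 pools were examined for a pool apart from the others by Dixon's criterion at 95%, which flags about 1 group in 20 by chance, and 5 were found. H2-Q6 with H2-Q8, nonclassical MHC class I genes, read 7.65 in PR+/- pool 5 against 6.85 to 6.99 in the other controls. Olfr97 with Olfr98 read 3.19 in PR+/- pool 5 against 2.72 to 2.81, far under background. Gm17695 with LOC102635990 (10520360) read 5.62 in PR+/- pool 1 against 4.82 to 5.05, and without that pool the call held. Cyp4v3 with Klkb1 read 5.52 in PRKO pool 1 against 5.64 to 5.68. Olfr933 with Olfr26 read 5.09 in PR+/- pool 4 against 5.38 to 5.45, and without that pool the call was lost.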

How the results depend on the processing

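The 5 shared probe sets lower in PRKO became 3 without the lowest 30% of probe sets by mean, a filter other than the 5.86 line. They became 3 linked groups when probe sets with a symbol in common were counted once. With each pool left out in turn, the lower count ranged from 4 to 6. The 8 higher became 13 when only probe sets with a symbol were tested, 14 with an intensity trend, 5 with a fold of at least 1.5, 0 at an adjusted p under 0.01, and 4 linked groups when counted once. Leaving out each pool in turn gave 1 to 7 higher, with 1 without PR+/- pool 1, 3 or 4, 2 without PRKO pool 1 or 5, and 4 without PR+/- pool 2 or PRKO pool 2 or 4. Both counts stayed within 1.5 times the main ones under quantile normalization, median centring, a robust prior and array weights. The same held with identical probe sets counted once (chosen after seeing the data). So did the lower count for a fold of at least 1.5 and at an adjusted p under 0.01. The higher count without the lowest 30% of probe sets by mean stayed within 1.5 times too. The calls gained with an intensity trend were in Chchd2, Ftl1, Gm30417 with Speer4cos, and Ppdpf with Gm14719, and those gained over probe sets with a symbol were in the first 3 of these. Over the 59 named probe sets, 1021 of 1107 repeats kept direction and side of the threshold. In 65 the call was lost, in 21 one was gained and 0 reversed. Only the 13 called probe sets could lose a call, so the first count mostly covers probe sets that were never called. Without PR+/- pool 1, 3 or 4, 8 of the 13 calls were lost. An exact permutation test without adjustment gave 18 of the 21 gains. Cdk8 with Rn28s1, the highest reading on every array, has a difference of 0 after quantile normalization by construction.

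The labels do not say whether same-numbered pools were paired. Deviations of same-numbered pools correlated at -0.19 to 0.41, and 1 of 5 controls matched its own number best. These correlations cannot show how the pools were collected or processed. With the replicate number as a replicate block, 4 were lower and 7 higher. The calls of Loxl2, Ppan, Pakap with Palm2 and Olfr933 with Olfr26 were lost there, with adjusted p above 0.05. Dim signal limits the Apol7, Gm17695 and olfactory receptor results, whose sizes are uncertain, and no probe sequences were used here, so a shared reading is not assigned to a gene.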

Other observations

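Some further readings were lower or higher in every pool of one genotype without passing the threshold. Ube2l3, a ubiquitin-conjugating enzyme, read with Gm6098, gave a log2 difference of -0.27 (SE 0.07, adjusted p = 0.118). Jmjd7 with Pla2g4b and Gm28042, the first a hydroxylase and the second a phospholipase, gave 0.49 (SE 0.14, adjusted p = 0.148). Ppdpf with Gm14719 gave 0.25 (SE 0.06, adjusted p = 0.0878). Oaz1, the antizyme that restrains polyamine synthesis, gave 0.25 to 0.27 on 2 probe sets shared with its pseudogene (adjusted p 0.172 to 0.178).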
